A study of Mus musculus with 8 samples.

Results

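The genes followed here name, or stand close to, the best known routes to Parkinson disease: the synucleins Sncb and Sncg, and Park7, Pink1, Uchl1, Fbxo7, Lrrk2 and Vps35. They were picked by symbol, with earlier results of these data known, and are 8 of the 22430 genes listed and of the 16730 genes that had enough reads to be tested. The third synuclein of the family was not analysed here. The study asked how gene expression changes in the ageing mouse brain. Polyadenylated RNA was sequenced from the brains of 8 male C57Bl/6JRj mice, 4 at 6 months (6m, young adult) and 4 at 24 months (24m, aged). The labels name no genetic change and no treatment in either group, and each library came from a separate animal. The labels give the tissue both as whole brain and as brain hemisphere, so every value is an average over all regions and cell types, and all animals were males of one strain. Replicate numbers within an age are names only.

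Synucleins are small soluble proteins of nerve terminals that associate with synaptic vesicle membranes; Sncb is widespread in brain, and Sncg is known from sensory, motor and neuromodulatory neurons. Pink1 is a mitochondrial kinase that accumulates on damaged mitochondria and marks them for removal, Park7 (DJ-1) is a redox-sensing protein, and Uchl1 and Fbxo7 belong to the ubiquitin system, as a hydrolase that keeps ubiquitin available and as the substrate receptor of an SCF ubiquitin ligase. Lrrk2 is a large kinase that phosphorylates Rab GTPases, and Vps35 is the core subunit of retromer, the coat that returns cargo from endosomes. Variants of most of these genes cause inherited parkinsonism in humans, in which dopamine neurons of the midbrain die; those neurons are a very small part of a whole brain.

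The upstream sequence of these genes was looked at for the palindromic core of the nuclear respiratory factor 1 (NRF-1) site, spelled GCGCNNGCGC and therefore read alike on both strands, and for the E-box CACGTG, also a palindrome. RefSeq promoters (build GRCm38.p6, 250 bases before each gene start) matched 7 of the 8 genes, all but Vps35, with 8 promoters in all since Fbxo7 has a pair. The NRF-1 core was present in the promoters of Fbxo7 (the upstream one of its pair), Park7 and Pink1, which are printed because these are the members that carry the motif. The letters occur in 4.98% of the 32851 promoters in the table, and in 11.7% of the 11611 promoters with at least 57% GC, a level that each of these 3 promoters exceeds. Capitals mark the motif, each sequence reads 5′ to 3′ towards the gene, and the motif begins 126 and 61 bases before the start in Fbxo7, 128 in Park7 and 10 in Pink1.
Fbxo7, chr10:86021778-86021837, plus strand: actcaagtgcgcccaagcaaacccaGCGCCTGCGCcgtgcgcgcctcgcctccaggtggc
Fbxo7, chr10:86021843-86021902, plus strand: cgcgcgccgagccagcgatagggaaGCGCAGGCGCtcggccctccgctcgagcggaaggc
Park7, chr4:150910015-150910074, minus strand: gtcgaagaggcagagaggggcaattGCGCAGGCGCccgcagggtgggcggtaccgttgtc
Pink1, chr4:138326297-138326331, minus strand: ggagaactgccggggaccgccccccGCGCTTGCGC
The E-box letters occur in 6.02% of all promoters and in none of the promoters of these genes. The motifs were chosen with results of these data known, and a match is a description of the letters only. Gene positions given with the results are in GRCm39.

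Depth was high, at 63460940 to 103462414 counts per library, and mitochondrially encoded genes took 5.26% to 6.52% of counts in 6m and 3.18% to 3.69% in 24m. One library stood apart: over the 7295 genes called between the ages, 24m replicate 1 lay at a median 54.5% of the way from the 6m mean to the mean of the other 24m libraries (quartiles 37.7% and 75.0%). Results that rest on it are therefore given with and without it. Expression also changed with gene length. The median log2 fold change, 24m against 6m, went from -0.52 in the fifth of genes with the shortest exonic length to 0.45 in the fifth with the longest (Spearman correlation across 16677 genes 0.42, and 0.56 with the length of the canonical transcript; genes are not independent replicates). For the 8 members, values with this trend removed stand beside the results; for other genes and for lists they are given only in part, and where none is given a value may still have moved with length. In bulk tissue such as this fewer cells of a type and less RNA per cell cannot be told apart.

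Per length, the 8 genes fell into a high and a low class. Counts per 1e+06 library counts, scaled by trimmed means (CPM), were divided by the length of the canonical transcript. At 6m Sncb stood at 866 ± 49.3 CPM per kb and Uchl1 at 857 ± 56.5 (mean ± SD, n = 4), whose libraries overlap. Park7 followed with 606 ± 52.1 and Pink1 with 221 ± 15.6, each with all 4 libraries under those of the gene above. The next genes were far lower and did not differ beyond their spread: Sncg at 14.0 ± 3.49, Vps35 at 12.1 ± 1.19 and Fbxo7 at 12.1 ± 0.803. Lrrk2, at 1.26 ± 0.244, was the lowest of the 8. At 24m the high class kept its 4 genes, with Uchl1 at 584 ± 72.3, Sncb at 579 ± 174, Park7 at 333 ± 77.5 and Pink1 at 238 ± 24.3, but each now overlapped the next. In the low class Vps35 stood at 18.9 ± 3.51, Fbxo7 at 8.98 ± 0.863, Sncg at 4.99 ± 2.09 and Lrrk2 at 2.27 ± 0.667, and of these neighbours only Fbxo7 and Sncg overlapped, by 1 library. Divided by the union of all exons instead, Park7 dropped below Pink1 at both ages (60.1 ± 5.16 against 205 ± 14.4 at 6m), because the exons annotated for Park7 add up to 9157 bases and its canonical transcript to 908. Other ranks also depended on the length used. By the union, Uchl1 (544 ± 35.9) lay above Sncb (473 ± 26.9) at 6m without overlap. Sncg (13.6 ± 3.39) likewise lay above Fbxo7 (4.64 ± 0.309) and Vps35 (3.68 ± 0.363) at 6m. At 24m Vps35 (5.78 ± 1.07) and Sncg (4.85 ± 2.04) overlapped by this measure, and the mean of Fbxo7 was lower (3.45 ± 0.332).

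**Figure D1:**
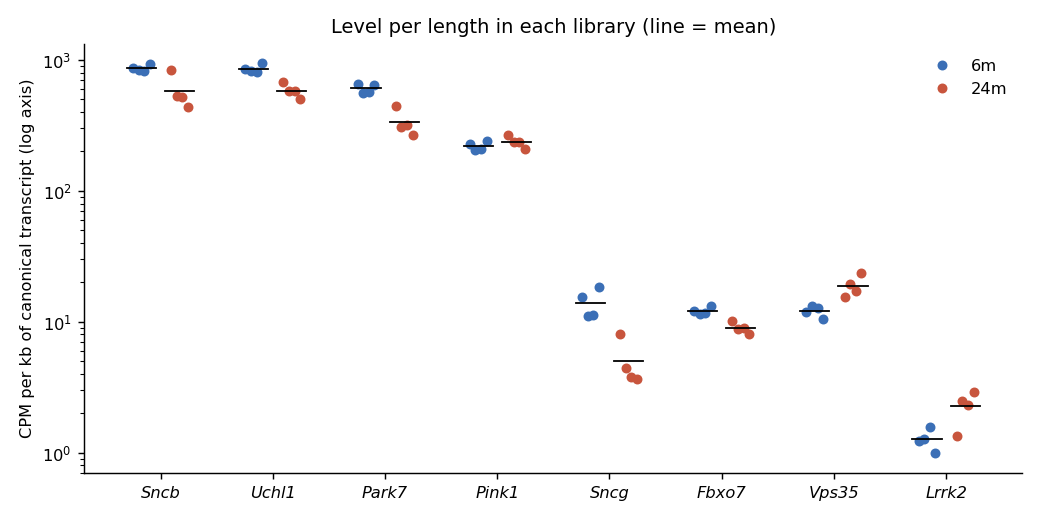
Level of each gene in each library, in CPM per kb of canonical transcript on a log axis, 6m in blue and 24m in red, with lines at the means of 4 libraries. Sncb, Uchl1, Park7 and Pink1 stand above 200 in all 8 libraries, and the other genes below 24.

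Between the ages, 5 of the 8 genes were called, that is, passed a Benjamini-Hochberg adjusted p of 0.05 in edgeR's quasi-likelihood test over all 16730 genes together with a log2 fold change of at least 0.58 in size. Sncg, Park7 and Sncb were called lower in 24m and Lrrk2 and Vps35 higher. Among all genes tested, 18.3% were called lower and 25.3% higher. Uchl1 and Fbxo7 also fell by adjusted p but stayed under the fold threshold, so that 5 genes fell and 2 rose by adjusted p alone, against 29.9% and 32.7% of all genes in the respective directions. Pink1 alone passed neither. Of the genes with the NRF-1 letters printed above, Fbxo7 and Park7 fell and Pink1 did not pass, while of the genes without these letters in their windows Sncb, Sncg and Uchl1 fell and Lrrk2 rose. The libraries of the ages did not overlap for 5 of the genes (Sncg, Park7, Uchl1 and Fbxo7 lower, Vps35 higher), and for 55.2% of all genes tested. Such large shares of the whole transcriptome changed that these counts alone do not set the 8 genes apart. With 24m replicate 1 left out, 4 genes were called lower and 2 higher, the added gene being Uchl1.

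**Figure D2:**
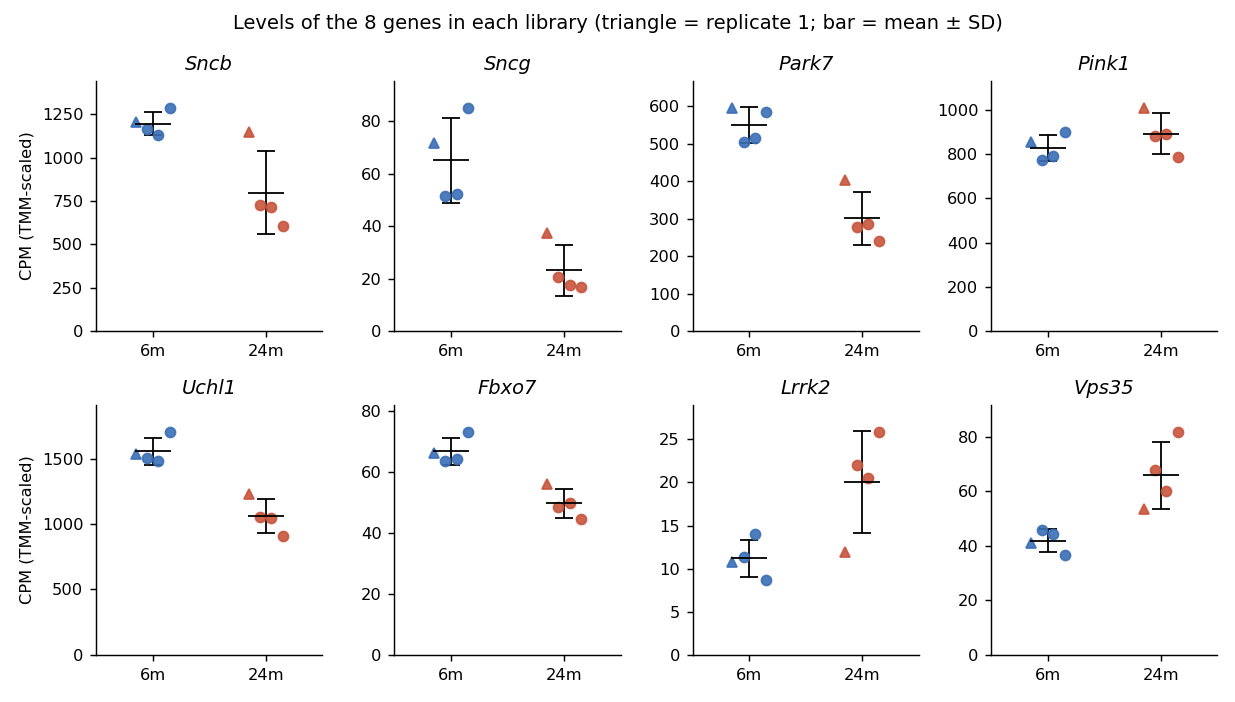
Scaled CPM of each gene in each library, 6m in blue and 24m in red, with a separate axis from 0 for each gene; triangles mark replicate 1 of each age and bars the mean ± SD of 4 libraries. In every gene but Pink1 the 24m triangle lies nearer to the 6m libraries than the other 24m points do, and in Sncb and Lrrk2 it lies within their range.

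Sncg showed the largest change of the 8 genes. The gene (ENSMUSG00000023064, GRCm39 chr14:34092231-34100539, minus strand) measured 71.6, 51.6, 52.4 and 85.1 CPM in 6m replicates 1 to 4 and 37.6, 20.5, 17.7 and 16.9 CPM in 24m replicates 1 to 4. Every 24m library lay below every 6m library, with 24m replicate 1 highest among the aged animals. On the log2 scale Sncg fell by 1.49 ± 0.27 (SE; 95% interval -2.10 to -0.88; edgeR adjusted p = 0.00126), which placed it at the 0.777 percentile of all log2 fold changes. The mean level at 24m was 0.356 of that at 6m, 23.2 ± 9.73 against 65.2 ± 16.2 CPM. Removing the trend over exonic length gave a log2 fold change of -1.50 (adjusted p = 7.23e-04), removing that over canonical transcript length -1.87 (adjusted p = 8.06e-04), and leaving out 24m replicate 1 -1.81 (adjusted p = 4.91e-06). A stretch of 314 exonic bases is shared with Mmrn2 on the other strand, which was low (2.23 ± 0.624 CPM at 6m and 1.89 ± 0.378 at 24m).

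Sncb, the more abundant synuclein, changed less and less evenly. The gene (ENSMUSG00000034891, chr13:54906660-54914432, minus strand) measured 1204, 1166, 1129 and 1288 CPM in the 6m libraries and 1151, 726, 714 and 607 CPM in the 24m libraries, in order of replicate. Replicate 1 of 24m lay inside the 6m range while the other 3 aged animals lay far below it. Sncb fell by 0.58 ± 0.18 on the log2 scale (95% interval -0.98 to -0.18; edgeR adjusted p = 0.0175), just past the fold threshold. Without 24m replicate 1 the log2 fold change was -0.80 (adjusted p = 9.83e-06), while leaving out 24m replicate 2 or 3 gave -0.54 and -0.53 (adjusted p = 0.0515 and 0.0528), and leaving out 6m replicate 1, 6m replicate 4 or 24m replicate 4 gave -0.58 (short of the threshold before rounding), -0.54 and -0.47, where no call was made. Nor was a call made after quantile normalization (-0.27, DESeq2 adjusted p = 0.0805), with library totals alone (-0.38, adjusted p = 0.0466), with the trend over GC content removed (-0.38, adjusted p = 0.0186) or with no filter on low counts (-0.57, adjusted p = 0.0188). The adjusted p was also lost with length taken into account: with the trend over exonic length removed the value was -0.25 (adjusted p = 0.110; -0.39 and 4.39e-04 without 24m replicate 1), and over canonical length -0.06 (adjusted p = 0.638). Sncb is short, with 1381 bases in its canonical transcript, and lies within the fifth of genes that are shortest, whereas Sncg has 4645 bases, the 71.1 percentile.

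The balance of the synucleins was measured within each library as the ratio of their counts per exonic kb, which does not depend on how libraries are scaled. The ratio of Sncb to Sncg was 31.7, 42.7, 40.7 and 28.6 in the 6m libraries and 57.8, 66.9, 76.1 and 67.7 in the 24m libraries. All 4 aged libraries, replicate 1 included, had more Sncb per Sncg than any young library. The mean went from 35.9 ± 6.83 to 67.1 ± 7.47, a log2 difference of 0.92 (two-sided exact permutation p = 0.0286, n = 4 per age, the smallest p that 70 assignments allow; 0.0429 adjusted over the 3 ratios tested). The ratio depends on which length is used for each gene, but its change between ages cannot, since a fixed length cancels out. With the trend over exonic length removed, the log2 fold changes of Sncb and Sncg were -0.25 and -1.50. Over canonical length they were -0.06 and -1.87.

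**Figure D3:**
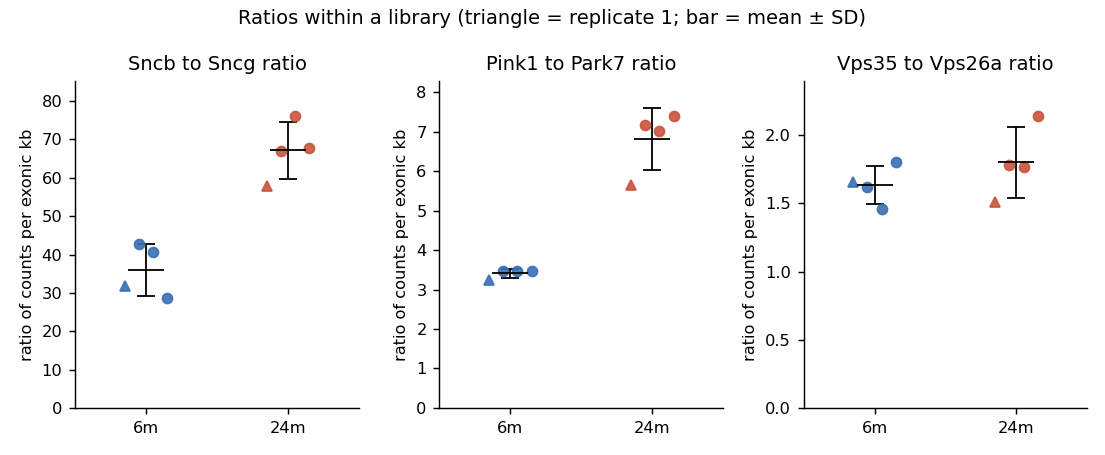
Ratio of counts per exonic kb within each library for 3 pairs of genes, 6m in blue and 24m in red, with axes from 0, triangles for replicate 1 and bars for the mean ± SD of 4 libraries. Sncb to Sncg and Pink1 to Park7 separate the ages in every library, and Vps35 to Vps26a does not.

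Of the mitochondrial pair, Park7 fell and Pink1 did not pass the test. Park7 (ENSMUSG00000028964, chr4:150981579-150998903, minus strand) measured 596, 504, 515 and 586 CPM in 6m and 403, 277, 287 and 240 CPM in 24m. All aged libraries lay below all young ones, again with 24m replicate 1 nearest to the young. Park7 fell by 0.87 ± 0.15 on the log2 scale (95% interval -1.21 to -0.52; edgeR adjusted p = 0.00102), or by 45.1% of its mean CPM.

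The length of Park7 is ambiguous, and the result turned on it. The union of its exons is long (77.1 percentile), its canonical transcript short (5.02 percentile). With the trend over exonic length removed the log2 fold change was -1.19 (adjusted p = 6.67e-04), but with the trend over canonical length removed it was -0.12 (adjusted p = 0.132). The trend at that canonical length was thus nearly as large as the change of Park7 itself.

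Pink1 (ENSMUSG00000028756, chr4:138039346-138053618, minus strand) measured 852, 771, 790 and 898 CPM in 6m and 1008, 880, 892 and 785 CPM in 24m. The ages overlapped, and 24m replicate 1 had the highest value. The log2 difference was 0.11 ± 0.10 (95% interval -0.12 to 0.33; edgeR adjusted p = 0.371), an interval that leaves out a change as large as the fold threshold of 0.58 in either direction. The value depended on the processing. Pink1 passed the adjusted p, under the fold threshold, at 0.43 after quantile normalization (DESeq2 adjusted p = 7.24e-17), at 0.24 with the trend over GC content removed (adjusted p = 0.00623), and at 0.32 (adjusted p = 0.00217) when libraries were scaled by their totals alone, which moved the median of all genes from 0.00 to 0.21. With the trend over exonic length removed it stood at 0.19 (adjusted p = 0.0765), and over canonical length at -0.11 (adjusted p = 0.396). Pink1 shares 1514 exonic bases with Ddost on the other strand, and Ddost fell by 0.35 on the log2 scale (adjusted p = 0.0211; -0.15 and 0.146 with the trend over exonic length removed). Whether the counting kept the strands apart is not given in the sources used here.

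Within a library, the ratio of Pink1 to Park7 counts per exonic kb was 3.24, 3.46, 3.47 and 3.47 in 6m and 5.66, 7.18, 7.03 and 7.40 in 24m. The young libraries were nearly alike and every aged library was higher. The mean went from 3.41 ± 0.114 to 6.81 ± 0.787, a log2 difference of 0.99 (two-sided exact permutation p = 0.0286, n = 4 per age; 0.0429 adjusted over 3 ratios). On removal of the trend over canonical length, the log2 fold changes of Pink1 and Park7 were -0.11 and -0.12, so that the difference between them was no longer seen on that scale.

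Both ubiquitin genes fell, with trimmed-mean scaling by amounts under the fold threshold. Uchl1 (ENSMUSG00000029223, chr5:66832748-66845009, plus strand), an abundant neuronal enzyme, measured 1539, 1502, 1481 and 1707 CPM in 6m and 1230, 1053, 1050 and 909 CPM in 24m. The ages did not overlap. Uchl1 fell by 0.55 ± 0.11 on the log2 scale (95% interval -0.80 to -0.31; edgeR adjusted p = 0.00176), under the fold threshold, and by 0.62 without 24m replicate 1 (adjusted p = 5.10e-05), which is past it. With the trend over exonic length removed the value was -0.27 (adjusted p = 0.0134), and over canonical length -0.19 (adjusted p = 0.0328), while library totals alone gave -0.34 and quantile normalization -0.20. Its exons overlap 555 bases of the antisense transcript Uchl1os, which the count table did not list.

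Fbxo7 (ENSMUSG00000001786, chr10:85857690-85887737, plus strand) measured 66.3, 63.6, 64.1 and 73.2 CPM in 6m and 55.9, 48.4, 49.9 and 44.4 CPM in 24m, again without overlap. Fbxo7 fell by 0.43 ± 0.09 on the log2 scale (95% interval -0.63 to -0.22; edgeR adjusted p = 0.00302). Its transcript is long (5534 bases, 80.4 percentile), in the fifth of genes whose median log2 fold change was 0.69, and removing the length trend made the decrease larger: -0.91 over exonic length (adjusted p = 0.00173) and -0.96 over canonical length (adjusted p = 5.47e-04). The value was -0.65 with the trend over GC content removed, past the fold threshold, and -0.21 with library totals alone. Fbxo7 shares 3121 exonic bases with Syn3 on the other strand. Syn3, a synapsin, rose from 3.52 ± 0.332 to 7.03 ± 2.03 CPM (adjusted p = 0.00237; 0.0927 over canonical length), the opposite direction.

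Lrrk2 and Vps35, the members that act on endosomal traffic, were higher in the aged brains. Lrrk2 (ENSMUSG00000036273, chr15:91557083-91700604, plus strand) measured 10.8, 11.3, 14.0 and 8.73 CPM in 6m and 11.9, 22.0, 20.5 and 25.9 CPM in 24m, from 577 to 2262 counts per library. Replicate 1 of 24m lay within the 6m range and the other 3 above it. Lrrk2 rose by 0.85 ± 0.23 on the log2 scale (95% interval 0.34 to 1.35; edgeR adjusted p = 0.00922), and by 1.04 without 24m replicate 1 (adjusted p = 1.03e-04). It is the longest of the 8 genes, with a canonical transcript of 8851 bases (95.5 percentile). With the trend over exonic length removed the log2 fold change was 0.23 (adjusted p = 0.128; 0.31 and 0.0192 without 24m replicate 1), and over canonical length 0.07 (adjusted p = 0.619), so that the fold threshold was reached under none of these, nor with the trend over GC content removed (0.57, adjusted p = 0.0107).

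Vps35 (ENSMUSG00000031696, chr8:85986024-86026431, minus strand) measured 40.9, 46.0, 44.3 and 36.6 CPM in 6m and 53.4, 68.0, 60.3 and 82.0 CPM in 24m. It was the only member whose aged libraries all lay above the young ones. Vps35 rose by 0.65 ± 0.14 on the log2 scale (95% interval 0.35 to 0.96; edgeR adjusted p = 0.00245), or by 57.1% of its mean CPM. Without 24m replicate 4, its highest library, the value was 0.53 (adjusted p = 0.00356), under the fold threshold. Removing the trend over exonic length gave 0.22 (adjusted p = 0.0463) and over canonical length 0.48 (adjusted p = 0.00572); neither reached the fold threshold, nor did the value with the trend over GC content removed (0.36, adjusted p = 0.00135). Vps35 overlaps Orc6 on the other strand by 213 exonic bases, and Orc6 was at -0.29 on the log2 scale (adjusted p = 0.0266), but at 0.07 and 0.14 with the trend over exonic and canonical length removed (adjusted p = 0.599 and 0.334).

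**Figure D4:**
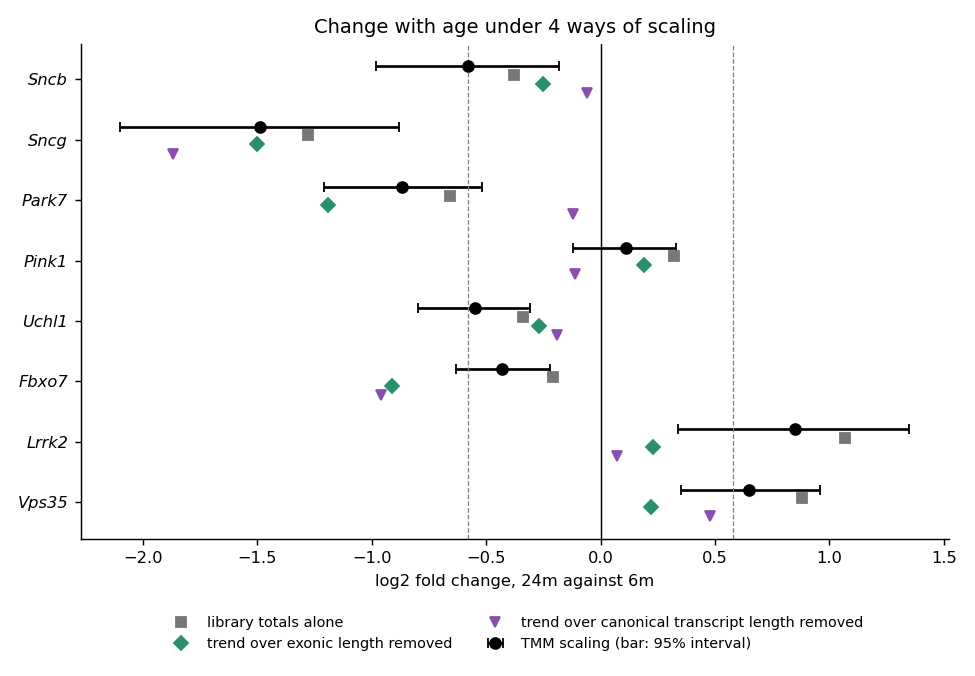
Log2 fold change of each gene, 24m against 6m, with trimmed-mean scaling (black, bars for the 95% interval), scaling by library totals (grey), and with the trend over exonic (green) or canonical transcript length (purple) removed; dashed lines mark 0.58 and -0.58. Sncg and Fbxo7 stay below 0 by 0.21 or more under all 4, while Sncb, Lrrk2 and, over canonical length, Park7 move close to 0.

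With the trend over exonic length removed, 60.6% of the 16730 genes still passed an adjusted p of 0.05 in one direction or the other. Of the 8 genes, Sncg, Park7, Fbxo7 and Uchl1 passed lower and Vps35 passed higher. Sncg, Park7 and Fbxo7 also reached the fold threshold. Over canonical length Sncg and Fbxo7 did.

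The genes around the 8 members were counted in 8 lists, 193 genes in all, every one tested. Calls were made for 56 of them upward (29.0%) and for 22 downward (11.4%), where the shares over all genes tested were 25.3% and 18.3%. Their median log2 fold change was 0.20 against 0.00 over all genes tested. The upward share was thus near that of all genes, and the same shares are the background for each list below. With the trend over exonic length removed the counts were 47 and 25, when 3568 and 2885 of all genes tested were called, and over canonical length 41 and 20, when 3022 and 2423 of all genes were. The lists did not share a direction. They were chosen with results of these data known, and their counts are a description.

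Among 20 presynaptic partners of the synucleins, 9 were called higher and none lower, and the median of the list was 0.54 on the log2 scale. By adjusted p alone 14 were higher and 2 lower. Vamp2, the vesicle SNARE, rose from 407 ± 45.1 to 574 ± 64.9 CPM (by 0.50 on the log2 scale, adjusted p = 0.00383), and Cplx1, complexin, from 505 ± 34.4 to 604 ± 37.9 CPM (0.26, adjusted p = 0.0250), both under the fold threshold. Vamp2 stood at 0.60 and 1.15, past it, with the trend over exonic and canonical length removed. Dnajc5, the vesicle chaperone cysteine string protein, rose from 22.4 ± 2.89 to 72.8 ± 14.8 CPM (1.70, adjusted p = 5.11e-05). Sncg thus moved the other way from most of this list. Sncb did so with trimmed-mean scaling, but missed the adjusted p with the trend over exonic or canonical length removed (-0.25 and -0.06, edgeR adjusted p = 0.110 and 0.638). After quantile normalization Sncb missed it too (-0.27, DESeq2 adjusted p = 0.0805). No test compared the synucleins with the list. Rab3a and Bin1 were the genes of the list that fell by adjusted p (by 0.46 and 0.36 on the log2 scale), both named after their values were seen. Over canonical length Rab3a came to 0.06 (adjusted p = 0.486) and Bin1 to -0.89 (adjusted p = 9.26e-04). Calls downward numbered 1 with the trend over exonic length removed and 2 over canonical length, and calls upward 15 after quantile normalization.

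Around Pink1, 8 of 33 genes of mitochondrial import, mitophagy and dynamics were called higher and 2 lower, and the list's median was 0.09. Usp30, the deubiquitinase that opposes mitophagy, rose from 39.7 ± 2.26 to 52.7 ± 2.30 CPM (by 0.41 on the log2 scale, adjusted p = 0.00155). Phb2, a prohibitin, fell by 0.56 (adjusted p = 0.00454). Neither change was seen with the trend over canonical length removed, where Usp30 stood at 0.00 in size (adjusted p = 0.992) and Phb2 at 0.00 (adjusted p = 0.973). Tomm7, a subunit of the outer membrane translocase that holds Pink1 at the mitochondrion, fell from 151 ± 8.00 to 62.6 ± 14.7 CPM, by 1.27 on the log2 scale (adjusted p = 1.29e-04), the lowest log2 fold change of this list, and stood at -0.66 and -0.71 with the trend over exonic and canonical length removed. Calls downward numbered 5 with the exonic trend removed and 5 without 24m replicate 1, but 1 without 24m replicate 4 and 1 with library totals alone. Calls upward numbered 3 over canonical length.

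Among 22 genes of redox defence and other Park7 partners, 4 were called higher and 4 lower. The sensor pair Nfe2l2 and Keap1 had log2 fold changes of 0.46 (adjusted p = 0.00708) and 0.06 (adjusted p = 0.513). Glo1, a glyoxalase, was at 0.08 (adjusted p = 0.398), and at -0.62 over canonical length (adjusted p = 0.0143). Among the called genes, and named after their values were seen, the glutathione synthesis enzyme Gclc rose by 1.02 on the log2 scale (adjusted p = 5.41e-04) and the thioredoxin reductase Txnrd1 by 1.21 (adjusted p = 8.17e-05), while thioredoxin itself, Txn1, fell by 0.98 (adjusted p = 3.28e-05) and the superoxide dismutase Sod1 by 1.02 (adjusted p = 7.82e-04). Txn1 did not pass over canonical length (-0.15, adjusted p = 0.325). With library totals alone 8 genes of the list were called higher.

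Around Uchl1, 2 of 17 genes of the ubiquitin pool were called higher and 4 lower. The related hydrolase Uchl3 fell from 16.2 ± 1.46 to 10.2 ± 0.871 CPM (by 0.67 on the log2 scale, adjusted p = 6.28e-04). The polyubiquitin gene Ubb fell by 0.40 (adjusted p = 0.0286) with overlap between the ages, and did not pass with the trend over exonic length removed (-0.13, adjusted p = 0.281). No gene of this list was called higher with the trend over either length removed, 2 were called lower over canonical length, and 4 were called higher with library totals alone. Around Fbxo7, 1 of 17 genes of the SCF ligase and the proteasome was called higher and 4 lower. The calls downward numbered 2 with the exonic length trend removed, with library totals alone and after quantile normalization, and 1 over canonical length. Its adaptor Skp1 fell by 0.51 (adjusted p = 2.39e-04), under the fold threshold, and stood at 0.02 over canonical length (adjusted p = 0.855). The cullin Cul1 was at -0.21 (adjusted p = 0.0651; -0.66 and 1.60e-04 with the exonic trend removed), and Psmf1, the proteasome inhibitor PI31 that Fbxo7 binds, at -0.11 (adjusted p = 0.290). Psmf1 passed lower with the trend over either length removed (-0.37 exonic and -0.35 canonical, adjusted p = 0.0149 and 0.0143).

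The lists around Lrrk2 and Vps35 had more calls upward than downward, as had all genes tested and the presynaptic, Pink1 and other parkinsonism lists. Of 29 Rab substrates and partners of Lrrk2, 12 were called higher and 2 lower, and the list's median was 0.52. Rab10, a main substrate, rose by 0.78 (adjusted p = 0.00240), Ppm1h, the phosphatase that removes phosphate from Rab proteins, rose from 15.2 ± 1.46 to 35.3 ± 5.54 CPM (1.21, adjusted p = 8.09e-05, and 0.57 over canonical length, under the fold threshold), and Rab8a was at -0.04 (adjusted p = 0.761; -0.42 and 0.0189 over canonical length). Calls upward numbered 10 with the trend over either length removed, and calls downward 1 with the exonic trend removed and without 6m replicate 4 or 24m replicate 4. Library totals alone gave 18 calls upward and 0 downward. Of 31 genes of retromer, its WASH partner complex and its cargo, 10 were called higher and 2 lower, and the median was 0.39, the upward count being near the 25.3% of all genes. With the exonic trend removed 8 were called higher and 4 lower, and with library totals alone 16 were called higher.

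Vps35 works in a trimer with Vps29 and a Vps26 protein, and with trimmed-mean scaling the subunits did not all change in the same direction. Vps26a rose by 0.49 (adjusted p = 0.00841), Vps26b from 41.8 ± 3.08 to 88.6 ± 4.89 CPM (1.08, adjusted p = 2.42e-05), and Vps29 fell by 0.39 (adjusted p = 0.00334), or by 0.63, past the fold threshold, with the exonic trend removed. The ratio of Vps35 to Vps26a per exonic kb was 1.66, 1.62, 1.46 and 1.80 in 6m and 1.51, 1.78, 1.77 and 2.14 in 24m. The ages overlapped, with means of 1.63 ± 0.138 and 1.80 ± 0.258 (two-sided exact permutation p = 0.314, n = 4 per age; 0.314 adjusted over 3 ratios).

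**Figure D5:**
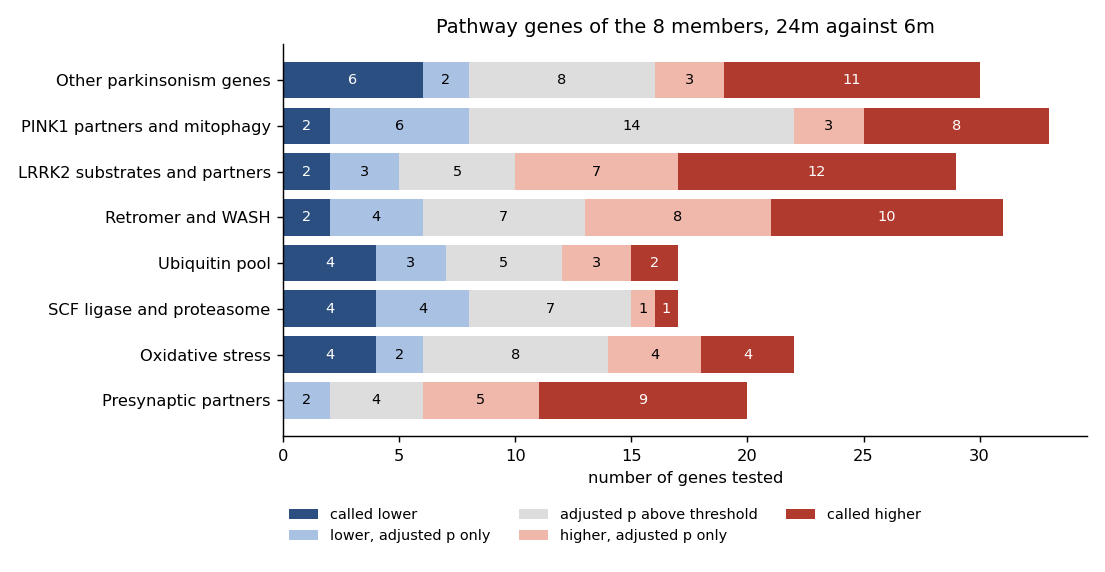
Number of genes in each of the 8 lists by outcome of the edgeR test, 24m against 6m; dark segments are calls (adjusted p and fold threshold), pale segments passed the adjusted p alone, and grey did not pass. The presynaptic list has 9 genes called higher and none lower, and the SCF list 1 higher and 4 lower.

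Among other genes of inherited or associated parkinsonism, 11 of 30 were called higher and 6 lower, and the median was 0.10. Calls upward numbered 7 over canonical length, and calls downward 2 with library totals alone. Atp13a2, a lysosomal polyamine transporter, was at -0.17 (adjusted p = 0.143) and the phospholipase Pla2g6 at -0.14 (adjusted p = 0.273), and both passed lower over canonical length (-0.56 and -0.29, adjusted p = 0.00415 and 0.0435).

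Genes of other cell types were counted because a shift in cell makeup would move bulk values; the part of any such shift in the results above was not tested. Summed over the list, 18 neuronal genes took 6608 to 7082 CPM in 6m and 7317 to 7635 in 24m, with 4 called higher and 3 lower; Rbfox3 fell by 0.35 (adjusted p = 0.00230) and Tubb3 by 0.63 (adjusted p = 0.00393). The 15 genes of dopamine neurons took 279 to 300 CPM in 6m and 277 to 325 in 24m, with 5 called higher and 3 lower, and their defining genes moved apart: Th fell from 47.6 ± 4.77 to 29.0 ± 4.42 CPM (by 0.71, adjusted p = 9.93e-04) and Slc6a3 rose from 7.20 ± 0.828 to 11.6 ± 1.96 CPM (0.68, adjusted p = 0.00303). Over canonical length Th stood at -1.15 and Slc6a3 at 0.52, under the fold threshold, and Slc6a3 at 0.38 after quantile normalization. Other monoamine and cholinergic genes took 264 to 333 and 204 to 276 CPM (2 of 14 called higher, 4 lower; Chat at 0.06 and Tph2 at -0.98, neither passing). Striatal genes took 1409 to 1720 and 1300 to 1559 CPM (4 of 12 higher, 2 lower), with Ppp1r1b at -0.20 (adjusted p = 0.268) and Drd1 rising by 1.82 (adjusted p = 3.53e-04).

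Among glia, 7 of 13 astrocyte genes were called higher and 1 lower, over sums of 4184 to 5117 CPM in 6m and 4725 to 5343 in 24m, and Gfap and Aqp4 rose by 1.45 and 1.92 on the log2 scale (adjusted p = 6.49e-05 and 1.12e-04). Of 16 microglial genes 5 were called higher and none lower (812 to 897 and 791 to 1180 CPM), with Cx3cr1 up by 1.72 and P2ry12 by 0.75 (adjusted p = 6.92e-05 and 0.0321). Of 12 oligodendrocyte lineage genes 3 were called higher and none lower (3494 to 4356 and 3795 to 4371 CPM), with Mbp at 0.00 (adjusted p = 0.997). In both lists no gene was lower by edgeR's adjusted p alone. Endothelial genes took 108 to 152 CPM in 6m and 74.4 CPM or more, yet less than in any 6m library, in 24m, with 2 of 12 called higher and 4 lower; Cldn5 fell by 1.06 (adjusted p = 4.59e-04) and Pecam1 was at -0.24 (adjusted p = 0.226). Erythroid genes took 5466 to 7646 and 1296 to 4202 CPM, with 5 of 7 tested genes called lower, among them Hba-a1 and Hba-a2 (by 1.42 and 1.41, adjusted p = 0.00249 and 0.00246). Choroid plexus genes spread widely at both ages (2035 to 3552 and 1208 to 2592 CPM; 3 of 10 higher, 1 lower; Ttr at -0.79 with adjusted p = 0.0598, Kl up by 1.53 with 5.15e-05), and blood myeloid and lymphoid genes were low at 6m (15.8 to 23.9 against 23.2 to 410 CPM; 3 of 9 tested higher, 2 lower; S100a8 at -1.17 with adjusted p = 0.0997, S100a9 down by 1.40 with 0.0327). The highest log2 fold change of that last list, named after its value was seen, was 6.94 for the immunoglobulin light chain gene Igkc (adjusted p = 0.0115; 2.36 and 0.0138 without 24m replicate 1), which measured 0.514 to 1.07 CPM in 6m and 361, 9.40, 1.73 and 0.539 CPM in 24m replicates 1 to 4, so that 1 library set the upper end of the 24m sum. No gene of these lists that was present in the table was at 0 in all libraries.

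The pattern of each member over the 8 libraries was also set against 13558 other genes of at least 1 mean CPM, by Pearson's r of log2 CPM, as a description. The nearest genes were Ubb, Sirt3 and Ptges2 for Sncb (r from 0.998 to 0.999), Lsm10, Chchd5 and Enho for Sncg (0.997), and Timm13, H2aj and Trir for Park7 (0.999). For Uchl1 they were Tubb4b, Ypel3 and Cystm1 (0.998 to 0.999), and for Fbxo7 Rab5if, Ogfr and Psmg3 (0.997 to 0.999). Lrrk2 was nearest to Pcdhb16, Bltp3b and Map4k5 (0.993 to 0.998), and Vps35 to Rhoq, Inpp4b and Kcnk10 (0.995 to 0.996). Such values are common here, since all genes share the same libraries and the difference between ages: from 880 genes for Lrrk2 to 2448 for Park7 had an r above 0.95. Pink1 stood apart from the other members, with 32 such genes, led by Bcar1, Zbtb7b and Map1s (0.982 to 0.992).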

How the data were processed

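RNA from the brains of 4 male mice of 6 months and 4 of 24 months was analysed. As the labels and the study's methods describe, poly(A) RNA was made into directional libraries and read in pairs on an Illumina instrument. The submitters' processing notes name Trim Galore 0.4.11 and HISAT2 2.1.0 with GRCm39, and the methods name featureCounts; handling of strand and of multimapping reads is not given in the sources used here. The authors deposited raw counts per Ensembl gene and library, which were used as they stand. Of 22430 genes, 22281 matched GENCODE symbols.

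The 16730 genes that had over 5 counts in 4 or more libraries were tested with edgeR 4.0.16 (R 4.3.3, quasi-likelihood, TMM factors, age as the only term). Calls needed an adjusted p (Benjamini-Hochberg) no higher than 0.05, with a log2 fold change of 0.58 or more in size, the thresholds of the study. Standard errors are the fold change over the root of F, and 95% intervals use the degrees of freedom of that test. CPM are counts per 1e+06 scaled by TMM, and the log2 values behind correlations had a prior count of 2. Ratios were compared by exact permutation over 70 assignments. No pair of libraries agreed within sampling noise (chi-square per degree of freedom 8.17 to 424 over 12 pairs); by the labels n is 4 per age. Depth limits little: the lowest member count was 577.

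Exonic length is the union of a gene's exons in GENCODE, and canonical length that of its canonical transcript. Length trends were removed with a smoothed offset per library (lowess span 0.3). Alternatives were other scalings, DESeq2 1.42.0, limma-voom 3.58.1, other filters, each library left out, the replicate number as a block, thinning, and trends over length or GC content. The trend over canonical length, and the length trend without 24m replicate 1, were added after seeing the data. On simulated data for this comparison (16730 genes, of which 200 were given a log2 change of 1), 95.5% of the changed genes were found with 8 unchanged genes called. The simulation changed far fewer genes than were called here and gave every gene the same dispersion. It held no library apart from its group and, for these rates, no length trend. The rates are therefore not those of the test on these data.

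The members, the 8 pathway and 11 marker lists and the motifs were chosen with earlier results of these data known. Named genes are the members, the first 3 genes of each pathway list, the first 2 genes of each marker list, the 3 genes most like each member over the 8 libraries, and others where said to be picked after their values were seen; some genes under this rule are not reported here.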

Additional observations from a re-analysis of the deposited data

Results flagged for a closer look

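In 6m, the ratio of Pink1 to Park7 counts per exonic kb had 1 library away from the others: replicate 1 was at 3.24 and replicates 2 to 4 at 3.46 to 3.47. The gap between replicate 1 and its nearest neighbour was 0.972 of the whole range of the group, past Dixon's limit for 4 samples. The range itself is small beside the difference between ages (5.66 to 7.40 in 24m). Of 22 groups of 4 values examined, 1 was past the limit, and chance alone gives about 1 in 20.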

How the results depend on the processing

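Sncg and Fbxo7 kept their direction and their side of the adjusted p threshold in all 23 alternatives, and no member with a passing value reversed. Values that crossed it were as follows; the cause was not tested. Sncb missed it after quantile normalization (-0.27), with the length trend removed (-0.25 over exonic length, -0.26 with the replicate block as well, -0.06 over canonical length), and without 24m replicate 2 (-0.54, adjusted p = 0.0515) or replicate 3 (-0.53, adjusted p = 0.0528), with a range of -0.80 to -0.47 over libraries left out. By fold size alone Sncb also lost its call with library totals (-0.38), the GC trend removed (-0.38) and no low-count filter (-0.57). Park7 missed the adjusted p over canonical length (-0.12). Lrrk2 missed it with length removed (0.23, 0.23 with the replicate block, 0.07 over canonical length), as did Uchl1 (-0.27) and Vps35 (0.21) with the replicate block and length together. Pink1 passed with library totals alone (0.32), after quantile normalization (0.43) and with the GC trend removed (0.24).

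Members called higher went from 2 to 0 with the exonic length trend, the GC trend, the replicate block with length, canonical length, and length without 24m replicate 1, and ranged from 1 to 2 over libraries left out (1 without 24m replicate 4, when Vps35 came to 0.53). Members called lower numbered 5 with no fold threshold and 2 to 4 over libraries left out. Library totals alone gave 5449 genes higher and 1746 lower in place of 4237 and 3058, whereas DESeq2 after quantile normalization gave 3573 higher and 3891 lower; library totals gave 84 in place of 56 pathway genes higher and 10 in place of 22 lower. With no fold threshold 4999 genes were lower, and 89 pathway genes higher and 47 lower.

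Replicate numbers do not pair the samples: correlations of same-numbered deviations were 0.271, 0.143, 0.0778 and -0.348. With the replicate block in edgeR, 4112 genes were called higher and 3130 lower, and 2 and 3 members as before. As 4 pairs, the ratios of Sncb to Sncg (0.92) and Pink1 to Park7 (0.99) gave p = 0.125 by exact sign flips, the smallest that 4 pairs allow, which says nothing of stability.

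Limits are the 4 animals per age, 1 library apart from its group, averaging over the whole brain, unknown strand handling for genes that overlap others, and lengths taken from annotation, not from the transcripts present.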

Other observations

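Several parkinsonism genes outside the 8 members had log2 fold changes beyond 1 in size. They are given as values, and were picked after their values were seen. Dnajc6 (auxilin) and Synj1 (synaptojanin), which act together in stripping clathrin from endocytic vesicles, rose from 22.8 ± 7.48 to 109 ± 41.9 CPM and from 43.7 ± 8.42 to 159 ± 62.2 CPM, log2 fold changes of 2.26 and 1.86 (edgeR adjusted p = 3.00e-04 and 4.54e-04), or 1.92 and 1.50 with the exonic length trend removed and 1.50 and 1.13 over canonical length. Vps13c, a lipid transfer protein, rose from 5.47 ± 1.20 to 20.1 ± 7.55 CPM (1.88, or 1.24 and 1.06 with exonic and canonical length removed). Chchd2, a small mitochondrial protein, fell from 967 ± 115 to 461 ± 51.0 CPM (by 1.07, adjusted p = 9.54e-05, or -0.73 with exonic length removed); over canonical length it stood at -0.31 (adjusted p = 0.0104), under the fold threshold. The spread at 24m was wide for the genes that rose.

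Among retromer cargo and adaptors, Sort1 (sortilin) rose from 37.5 ± 3.13 to 192 ± 48.9 CPM (by 2.35 on the log2 scale, adjusted p = 2.42e-05), Sorl1 from 58.2 ± 2.45 to 182 ± 63.3 CPM (1.65, adjusted p = 2.70e-04) and the sorting nexin Snx27 from 9.91 ± 0.673 to 35.5 ± 10.2 CPM (1.84, adjusted p = 7.18e-05). No test compared these changes with that of Vps35. Of the mitochondrial fusion genes, Opa1 rose by 1.96 and Mfn2 by 1.09 on the log2 scale (adjusted p = 1.36e-04 and 2.42e-05), while Mfn1 was at -0.15 (adjusted p = 0.169). Over canonical length Sort1, Sorl1 and Snx27 stood at 1.65, 0.84 and 1.66, Opa1 and Mfn2 at 1.30 and 0.67, and Mfn1 at -0.87 (adjusted p = 4.13e-04).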
